A study of Caenorhabditis elegans with 2 samples.

Results

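The intergenic regions far from any coding transcription start site (TSS) are 549 of the 3000 strongest regions of a ChIP-seq experiment on the Caenorhabditis elegans transcription factor HLH-6. They were chosen by rank and position. Among the 3000 regions with the highest signal value in the authors' pooled list, a region was taken when its summit lay in no annotated protein-coding gene, more than 1000 bp from every protein-coding TSS and more than 200 bp from any tRNA, snoRNA or snRNA gene. The signal value and the position were thus used by the choice and are given below as descriptions. The other 2451 of the 3000 regions, named other regions below, served for comparison.

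An anti-GFP antibody was used to immunoprecipitate chromatin of whole hermaphrodites of strain RW10702, in which HLH-6 carries GFP and FLAG at its C-terminus. The animals were late embryos, taken 3.5 hours after synchronization by bleaching of eggs, and chromatin was sheared by sonication. The series has 2 biological replicates of this single group, and the control experiment named in the labels was not analysed here. Every comparison is therefore between places in the genome, not between conditions. Because chromatin came from whole animals, the cells that gave a region its signal are not known.

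HLH-6 is a basic helix-loop-helix (bHLH) protein related to the achaete-scute proteins of flies, and worms need it to form the pharyngeal glands. Proteins of this class bind DNA as dimers at E-boxes, whose general form is CANNTG. In the compact worm genome most regulatory sequence lies close to gene starts, and intergenic sequence far from a coding start can hold enhancers, genes for non-coding RNA, pseudogenes and repeated DNA such as satellites, which are tandem arrays of a short unit.

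Sequences at the summits show the kinds of DNA the intergenic regions hold. All windows below run 50 bp to each side of the summit on build ce11, read 5′ to 3′. The first set carries the dinucleotide repeats that set the summits apart from their flanks, with the GA word GAGAGA, the CA word CACACA and the GC-rich word GGCGC in capitals on either strand. The windows lie at chrIII:4666875-4666975, chrX:12655520-12655620, chrV:6879774-6879874 and chrIII:13068450-13068550 on the plus strand.
T23F11.4: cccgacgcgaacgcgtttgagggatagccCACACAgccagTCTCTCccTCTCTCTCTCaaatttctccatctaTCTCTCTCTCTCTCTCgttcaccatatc
C02B4.3: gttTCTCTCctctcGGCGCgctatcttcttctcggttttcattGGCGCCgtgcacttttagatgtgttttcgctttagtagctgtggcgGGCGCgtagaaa
unc-70: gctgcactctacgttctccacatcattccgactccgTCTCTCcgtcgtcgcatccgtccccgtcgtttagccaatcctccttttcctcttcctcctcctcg
Y39E4B.6: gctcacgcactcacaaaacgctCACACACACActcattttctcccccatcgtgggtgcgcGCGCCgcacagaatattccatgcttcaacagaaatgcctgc

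The second set shows an E-box or a B box in capitals. The E-box is the motif of the bHLH class, and the B box (searched as GTTCNANNC) is an inner promoter element of tRNA genes. The windows lie at chrIV:14033977-14034077 inside the microRNA gene cel-mir-52, at chrIII:7659577-7659677 and at chrX:1081986-1082086, all on the plus strand. The first 2 have an E-box and the third a B box.
Y37A1B.7: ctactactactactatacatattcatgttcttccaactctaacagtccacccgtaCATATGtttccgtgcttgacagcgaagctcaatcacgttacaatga
lido-18: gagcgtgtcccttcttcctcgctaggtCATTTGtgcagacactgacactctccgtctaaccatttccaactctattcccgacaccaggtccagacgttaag
pfn-3: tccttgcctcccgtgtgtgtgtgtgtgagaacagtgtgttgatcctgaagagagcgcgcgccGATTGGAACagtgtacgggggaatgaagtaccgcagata

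The third set shows tandem arrays. Regions near fbxa-55 (chrIII:931555-931655, plus strand), C24H10.4 (chrX:5056370-5056470, minus strand) and Y73F4A.1 (chrIV:9048246-9048346, plus strand) hold the same satellite, and capitals mark the longest run of letters, 19 bases, that is found in all 3 windows. The array near T28H10.2 (chrV:12510077-12510177, plus strand) repeats a 9 bp unit, and capitals mark its most frequent 9-base word, which occurs 9 times.
fbxa-55: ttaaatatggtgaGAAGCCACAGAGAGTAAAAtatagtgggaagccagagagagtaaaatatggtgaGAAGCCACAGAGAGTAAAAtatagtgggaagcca
C24H10.4: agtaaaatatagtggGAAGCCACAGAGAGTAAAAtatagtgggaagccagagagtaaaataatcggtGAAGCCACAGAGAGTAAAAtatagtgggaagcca
Y73F4A.1: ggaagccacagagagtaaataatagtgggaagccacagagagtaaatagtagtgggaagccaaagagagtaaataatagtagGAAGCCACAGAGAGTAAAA
T28H10.2: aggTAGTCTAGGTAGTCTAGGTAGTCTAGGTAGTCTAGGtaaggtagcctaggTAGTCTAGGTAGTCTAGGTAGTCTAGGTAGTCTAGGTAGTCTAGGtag

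The positions that meet the position part of the rule, called the eligible genome below, cover 24.3 Mb or 24.2% of the genome, and 18.3% of the 3000 regions fell there. That is 22.6 intergenic regions per eligible Mb, against 32.3 other regions per Mb in the rest of the genome. By a second annotation, 0 of the 549 summits lay in a RefSeq protein-coding gene. The rule had already left out Ensembl protein-coding genes, so this is a description and no independent check of the label. The regions were 460 bp wide in 543 cases and narrower in 6. They are not all separate places: 24 of them lay within 460 bp of another, and 24 took their replicate values from the same regions of both replicate lists as another member.

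Pooled signal values ran from 61.4 to 528 with a median of 73.3. The score is the authors' own, and its scale is not given. 67 regions exceeded 100 and 5 exceeded 200, so most lay close to the lower limit of the choice. The last 3 regions inside it were near T20D4.15, T06A4.1 and Y55B1AR.4, at 61.457, 61.451 and 61.444. The first 3 outside it that met the position rule were near F22H10.2, gid-8 and Y22D7AR.2, at 61.392, 61.389 and 61.372.

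In the replicates' own lists the regions had median values of 38.0 in replicate 1 and 38.8 in replicate 2. Replicate 1 ranged up to 267 and replicate 2 up to 255, and a region was found for 547 of the 549 in replicate 1 and for all 549 in replicate 2. Replicate 2 had the higher value in 273 regions, so neither replicate was higher throughout. The value was over 2 times as high in replicate 1 for 11 regions and over 2 times as high in replicate 2 for 32. The rank correlation of the 2 replicates was only 0.110 over the intergenic regions and 0.302 over the other regions. Both sets had been chosen by their pooled signal, so these values are descriptions. The summits of the 2 replicates lay a median of 41 bp apart.

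Of the 549, 252 (45.9%) were among the 3000 strongest in both replicates, against 48.6% of all 3000 pooled regions. A further 139 were there in replicate 1 alone, 124 in replicate 2 alone and 34 in neither. The authors' optimal list, kept by IDR for agreement between replicates, holds 912 regions, which are the 912 strongest of the pooled list. The intergenic regions overlapped it by at least 1 bp in 142 cases (25.9%, exact 95% interval 22.2 to 29.7%), against 32.6% of all 3000 regions and 34.1% of the other regions, and 131 of the 142 were themselves regions of that list. These shares follow from rank, which the choice used. All 20 of the strongest intergenic regions overlapped the optimal list.

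**Figure D1:**
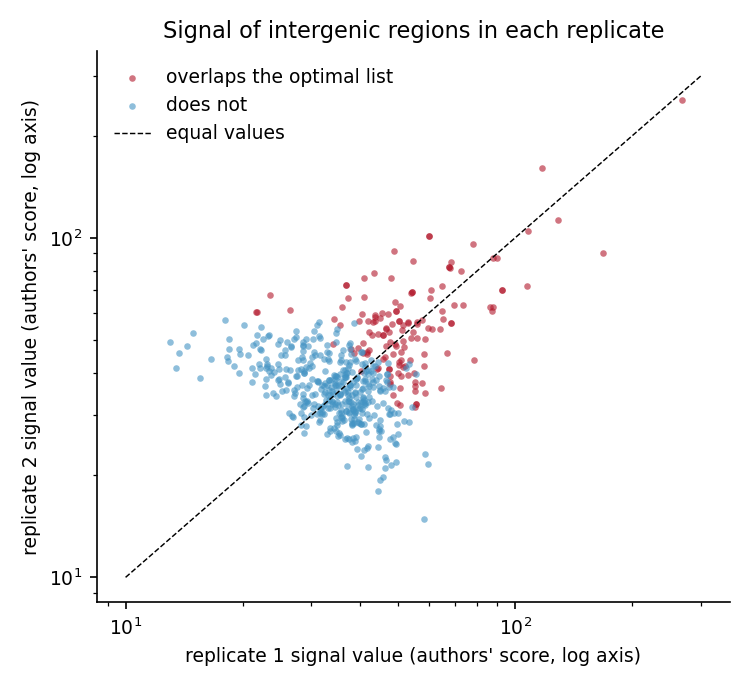
Signal value of each of the 547 intergenic regions found in both replicates, replicate 1 across and replicate 2 up, on log axes, coloured by overlap with the optimal list. The regions that overlap the list lie up and to the right, up to 267 in replicate 1 and 255 in replicate 2. The rest form 1 cloud around the line of equal values. The rank correlation of the 2 replicates over the plotted regions was 0.110.

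The 2 strongest intergenic regions lay at or beside microRNA genes. The region nearest to hrg-5 on chromosome IV had a pooled signal of 528, with 267 in replicate 1 and 255 in replicate 2. Its summit at 11026211 is in the non-coding RNA gene F36H1.17 and within 200 bp of cel-mir-51, and 2974 bp from the TSS of hrg-5. The region nearest to Y37A1B.7 on IV, with summit 14034027 inside cel-mir-52 and the E-box CATATG shown above, had 271 in the pool, 117 in replicate 1 and 160 in replicate 2. cel-mir-51 and cel-mir-52 are related microRNAs of the mir-51 family. The second was the only member whose summit was in an annotated miRNA gene (0.182%, against 0.0433% of the eligible genome). In a piRNA gene lay 0 summits, which for 549 summits allows a share of up to 0.670% (exact 95% upper bound). Of the eligible genome 0.528% lay in piRNA genes, which is below that bound.

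4 of the 12 strongest lay in tandem arrays or in copies of a satellite. Those near T28H10.2 and fbxa-55 meet the 80% rule for arrays given below, with 94.3% and 82.8%. Those near nas-30 (61.9%) and C24H10.4 (72.4%) fall short of it but share the satellite of the fbxa-55 region. Arrays by this rule were at 1.09% of all intergenic summits, 0.612% of other regions and 2.17% of the eligible genome. The region nearest to T28H10.2 on V had 233 in the pool, 129 in replicate 1 and 113 in replicate 2. The satellite regions had higher values in replicate 1 in the pair near nas-30 (168, and 90.4 in replicate 2) and near fbxa-55 (108, and 71.9 in replicate 2), whereas the region near C24H10.4 had 87.8 in replicate 1 and 86.9 in replicate 2. nas-30 encodes a protease of the astacin family and fbxa-55 an F-box protein.

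Pairwise identity among the 4 satellite regions, on chromosomes I, III, IV and X, was 84.7 to 92.9%, and each had between 42 and 109 other copies in the genome. They were the only members linked by such similarity in a group of more than 2. The fourth, near Y73F4A.1, had 86.1 in the pool, 59.6 in replicate 1 and 54.3 in replicate 2. Whether reads from such copies could each be placed at 1 position is not known from these lists. How the authors treated reads that match several places is not given in the sources used here. The 4 were singled out after their values were seen.

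The other strong regions were in sequence with no other copy found. The region near dhs-8 on II (210 in the pool, 108 in replicate 1, 105 in replicate 2) had its summit in the non-coding RNA gene K10H10.14, 1029 bp upstream of the gene's TSS. The region near unc-70 on V, the gene for beta-spectrin, had 173 in the pool, 89.8 in replicate 1 and 87.4 in replicate 2, and holds a GAGAGA. The remaining 4 of the 12 strongest were near W02H3.3 (174), F13D11.3 (162), lido-18 (161) and C02B4.3 (157). Of these 6 the replicates differed most near lido-18, with 59.965 in replicate 1 and 101.2 in replicate 2.

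The next 8 ran from 157 near T23F11.4 to 135 near ntl-9, and the others of them were near chd-7, Y49G5A.1, WBGene00020828, C30E1.4, cpt-1 and Y39E4B.6. The region near C30E1.4 on X, the third strongest with an E-box, had 144 in the pool, 68.2 in replicate 1 and 81.3 in replicate 2. The region near cpt-1, the gene for a carnitine palmitoyl transferase, had 142 in the pool, 87.0 in replicate 1 and 61.0 in replicate 2. The region near ntl-9, a subunit of the CCR4-NOT complex, had 54.5 in replicate 1 and 85.7 in replicate 2, so that neither replicate was the higher one in all 3.

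GC content was higher at the intergenic summits than around them. It had a median of 50.5% within 50 bp of the summit (lower and upper quartile 45.5 and 55.4%), 32.7% in windows 500 bp to each side, 51.5% in the other regions and 33.7% in the eligible genome. A GC content above 45% was found at 78.0% of the intergenic summits, at 7.47% of their flanks and in 10.7% of the eligible genome. Mean GC peaked at the summit and was back to 34.6% and 33.8% near 400 bp on the left and right. None of these shares was tested, because regions in a genome are not replicates, and the intervals given cover the counting of regions only.

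**Figure D2:**
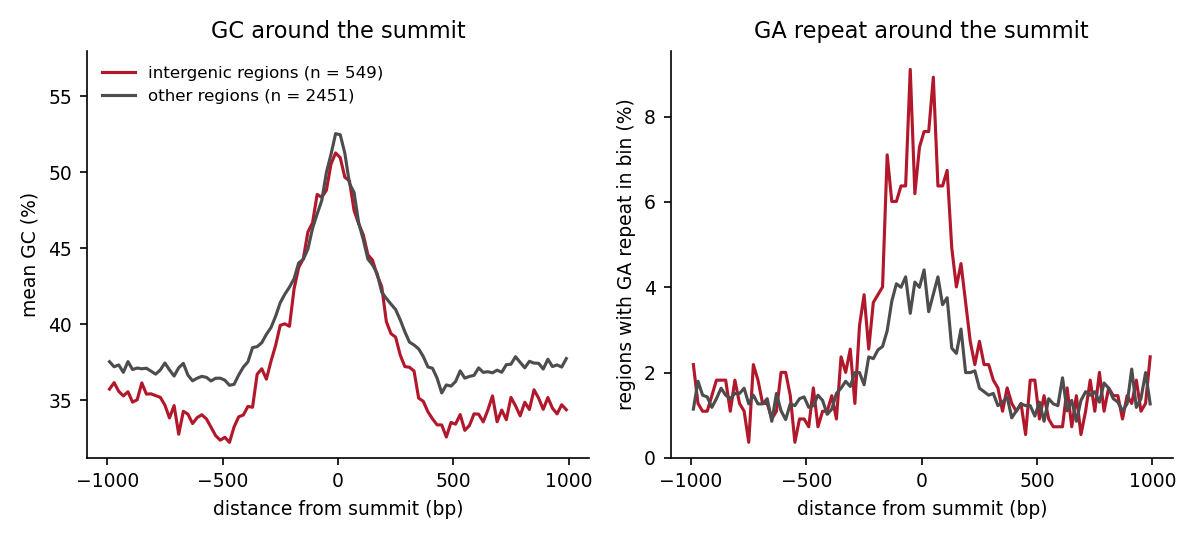
Mean GC (left) and the percent of regions with a GA repeat (right) in 20 bp bins by distance from the summit, for the 549 intergenic regions and the 2451 other regions. GC has the same peak in both sets, near 51.3% and 52.5%, while the GA repeat peaks near 9.11% in the intergenic regions and below 4.5% in the other regions.

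Among short words, GA repeats had the largest excess at the summits over the flanks. GAGAGA, sought on both strands, was in 159 of the 549 windows (29.0%, exact 95% interval 25.2 to 33.0%), against 4.83% of flanks, 15.9% of other regions and 5.33% of the eligible genome, and it was in 18.3% of all 3000 regions. The excess over the flanks was 24.1 percentage points, the first of 2080 words of 6 bases, each taken with its reverse complement. The next were its shift AGAGAG (24.6% of summits and 3.46% of flanks) and AAGAGA. 2 of the 4 satellite regions are among the 159.

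At matched GC content, the order of the sets was the same above 40% GC and differed below it. Among windows of 30 to 40% GC, GAGAGA was in 4 of 35 intergenic summits (11.4%), 14.1% of other regions and 5.31% of the eligible genome. Among windows of 40 to 50% GC, GAGAGA was in 31.2% of the intergenic summits, 18.7% of other regions and 9.56% of the eligible genome. Among windows of 50 to 60% GC, it was in 29.6% of the intergenic summits, 15.4% of other regions and 12.1% of the eligible genome. Above 60% GC, it was in 14 of 50 intergenic summits, 11.2% of other regions and 9.18% of the eligible genome. The GC bins were chosen after the values were seen.

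Runs of strictly alternating G and A (or T and C) of at least 10 bp were at 27 intergenic summits (4.92%). The share was 1.96% in other regions and 0.401% in the eligible genome. The longest, at 21 bp, was 1504 bp upstream of the TSS of gck-4 on X, where the signal was 79.6 in the pool, 38.7 in replicate 1 and 44.0 in replicate 2. The region near T23F11.4 on III, with the 16 bp run shown above, had 157 in the pool, 68.6 in replicate 1 and 85.1 in replicate 2. In Drosophila, GA repeats are the binding sites of the GAGA factor.

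CACACA was at 86 intergenic summits (15.7%), against 3.73% of flanks, 12.3% of other regions, 4.72% of the eligible genome and 12.9% of all 3000 regions. Together GAGAGA or CACACA was found at 219 (39.9%), against 8.38% of flanks, 25.6% of other regions and 9.68% of the eligible genome. GGCGC was at 78 (14.2%), against 4.55% of flanks, 17.5% of other regions, 4.23% of the eligible genome and 16.9% of all 3000. In windows of 50 to 60% GC the share with GGCGC was 19.2% at intergenic summits and 20.2% in the eligible genome. A run of AAAAAA, by contrast, was at 13.7% of the intergenic summits and at 49.7% of their flanks, 12.8% of other regions and 45.4% of the eligible genome. At matched GC the contrast was much smaller. In windows of 40 to 50% GC the run was at 16.1% of the intergenic summits and 22.3% of the eligible genome. In windows of 50 to 60% GC the order turned, at 10.8% of the intergenic summits and 9.79% of the eligible genome.

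The E-box was about as frequent at the intergenic summits as around them. It was in 174 windows (31.7%, exact 95% interval 27.8 to 35.8%), against 29.7% of flanks, 34.1% of other regions, 29.7% of the eligible genome and 33.7% of all 3000. In windows of 40 to 50% GC it was at 33.0% of the intergenic summits and 36.0% of the eligible genome. By class of its 2 inner bases, the excess over the flanks was largest for CACATG, at 5.83% of summits and 2.91% of flanks, and CAAATG was at 7.10% of summits and 9.29% of flanks. No E-box class was above place 420 of 2080 words. Other words were sought because they are known sites of worm factors. The GATA word GATAA was at 13.8% of the intergenic summits, 21.0% of flanks and 20.7% of the eligible genome. At matched GC this lower share was not seen against the eligible genome. In windows of 30 to 40% GC, GATAA was at 25.7% of the intergenic summits, 23.1% of flanks and 21.4% of the eligible genome. In windows of 40 to 50% GC the shares were 16.96%, 18.24% and 15.65%. The homeodomain word TAATTA was at 2.00% of the intergenic summits, 6.83% of flanks and 5.18% of the eligible genome. Its shares were not matched by GC content. TGTTTAC, a core of the forkhead class to which the pharyngeal factor PHA-4 belongs, was at 6 intergenic summits (1.09%), 1.18% of flanks and 1.32% of the eligible genome.

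**Figure D3:**
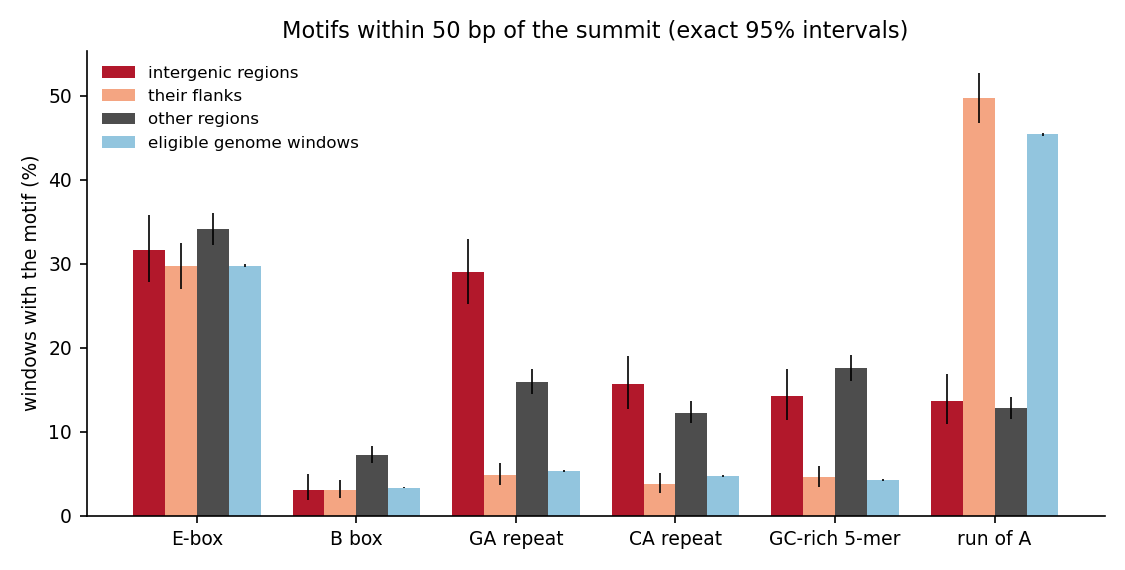
Percent of windows reaching 50 bp to each side of their centre that hold each motif, at the 549 intergenic summits, in their 1098 flanks, at the 2451 other summits and in 240417 windows of the eligible genome, with exact 95% intervals. GA and CA repeats and the GC-rich 5-mer are more frequent at the intergenic summits than in flanks or eligible genome, the E-box and B box shares lie close to those of the flanks, and runs of A are less frequent. Windows were not matched by GC content.

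The B box was at 17 intergenic summits (3.10%), against 3.10% of flanks, 7.22% of other regions, 3.33% of the eligible genome and 6.47% of all 3000. The rule had left out summits within 200 bp of tRNA genes, whose promoters hold this element. The 3 strongest of the 17 were near pfn-3 on X (profilin; 113 in the pool, 55.9 in replicate 1, 56.6 in replicate 2), idpp-9 on X (107 in the pool, 64.6 in replicate 1, 36.2 in replicate 2) and mbk-2 on IV (a kinase of the DYRK family; 100.7 in the pool, 43.6 in replicate 1, 57.0 in replicate 2).

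Repeats marked by the genome's masking were less frequent at the summits than around them. The summit base was masked in 64 of 549 (11.7%), against 39.7% of flanks, 11.8% of other regions, 40.4% of the eligible genome and 11.8% of all 3000. At matched GC the contrast was smaller, and at 30 to 40% GC it was absent. There 34.3% of the intergenic summits, 28.3% of flanks and 34.4% of the eligible genome were masked. At 40 to 50% GC the shares were 12.9%, 19.5% and 22.7%. Other copies of the sequence were found for 48 regions (8.74%), with the largest count, 881, near Y56A3A.7 on III. Copies were sought for the intergenic regions only, so this share has no comparison. Tandem arrays, with periods of 7 to 100 bp and at least 80% of bases equal to those 1 period on, were at 6 summits (1.09%), 0.612% of other regions and 2.17% of the eligible genome. The 6 were near T28H10.2 (period 9 bp), fbxa-55 (27 bp), Y49G5A.1 (52 bp), Y73F4A.1 (54 bp), gst-11 (11 bp) and nhr-88 (14 bp).

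Short non-coding RNA genes of the annotation's class ncRNA overlay 90 of the intergenic summits (16.4%, exact 95% interval 13.4 to 19.8%). The share was 1.55% in flanks, 9.83% in other regions and 1.70% in the eligible genome. These genes, whose function is mostly not known, have a median length of 141 bp and a median GC of 43.8%. Among windows of 50 to 60% GC the share was 22.1% at the intergenic summits and 6.56% in the eligible genome, and among those of 40 to 50% GC it was 12.1% at the intergenic summits and 3.58% in the eligible genome. On X it was 25.3% and on the autosomes 13.2%, and 37.8% of the 2634 ncRNA genes of the eligible genome are on X.

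LincRNA genes overlay 10 summits (1.82%), against 1.64% of flanks and 0.745% of the eligible genome, so the summits were close to their own surroundings. The strongest were near chd-7 on I (linc-91, 148 in the pool, 72.7 in replicate 1, 80.1 in replicate 2), cmd-1 on V (linc-128; 112 in the pool) and bir-1 on V (linc-153; 105 in the pool). cmd-1 encodes calmodulin. Pseudogenes overlay 31 summits (5.65%), against 4.83% of flanks and 11.0% of the eligible genome. The strongest were near WBGene00020828 on X (146), F40D4.17 on V (92.2) and F15D3.9 on I (91.5). Any non-coding gene overlay 129 (23.5%), against 8.11% of flanks and 13.9% of the eligible genome.

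By chromosome, the intergenic regions were spaced unevenly over the sequence open to them. Chromosomes III and I were densest, with 30.4 and 30.004 per eligible Mb, followed by II with 27.2 and X with 26.4, while V had 16.5 and IV 12.8. The other regions were also sparsest on V and IV, with 22.3 and 26.3 per Mb of the rest of the genome. Their density was 40.3 on X, 36.5 on III, 36.4 on I and 35.4 on II. X held 146 of the 549 (26.6%), against 20.03% of other regions, 21.2% of all 3000 and 22.8% of the eligible genome. Of the 142 regions that overlapped the optimal list, 51 (35.9%) were on X, against 22.5% of the other regions that overlapped it and 24.4% of all such regions among the 3000. Without the regions that hold GAGAGA or CACACA II was densest at 19.1, then X at 17.0, III at 16.5 and I at 15.002, and V at 10.9 and IV at 6.19 were again lowest. The arms, taken as each chromosome divided by 3 without its middle part, held 399 (72.7%), against 69.8% of the eligible genome and 70.1% of all 3000. With arms cut at 25% from each end the order turned, at 52.09% of the intergenic regions and 54.09% of the eligible genome.

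**Figure D4:**
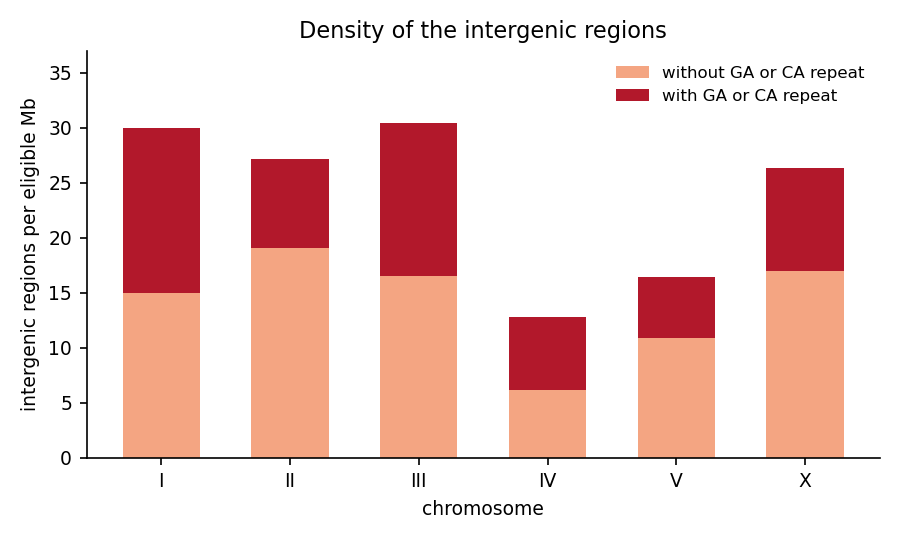
Intergenic regions per eligible Mb on each chromosome, split into those with and without a GA or CA repeat at the summit. The bars of IV (12.8) and V (16.5) are the lowest and those of I (30.004) and III (30.4) the highest.

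GA repeats were at 24.0% of the intergenic summits on X and 30.8% of those on the autosomes as a whole. The autosomes differed among themselves, with 40.3% on IV, 37.3% on III and 35.4% on I, and with II at 21.3% and V at 23.2% below X. In the other regions the share was 19.4% on X and 15.1% on autosomes.

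Going down the pooled list, the regions that met the position rule changed in GC, GA repeats and chromosome. GAGAGA was in 29.0% of those at ranks 1 to 500, 35.2% at ranks 501 to 1000, 30.6% at 1001 to 2000, 24.4% at 2001 to 3000, 17.9% at 3001 to 6000, 14.97% at 6001 to 12000 and 11.98% below. Median GC was 52.5% in the first group and 42.6% in the last, and the share on X was 40.3% in the first group and 19.9% in the last. The E-box share stayed between 29.5% and 37.5% with no such order. Masked repeats were at 16.1% of the strongest group, 8.74% at ranks 1001 to 2000 and 24.5% of the weakest.

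**Figure D5:**
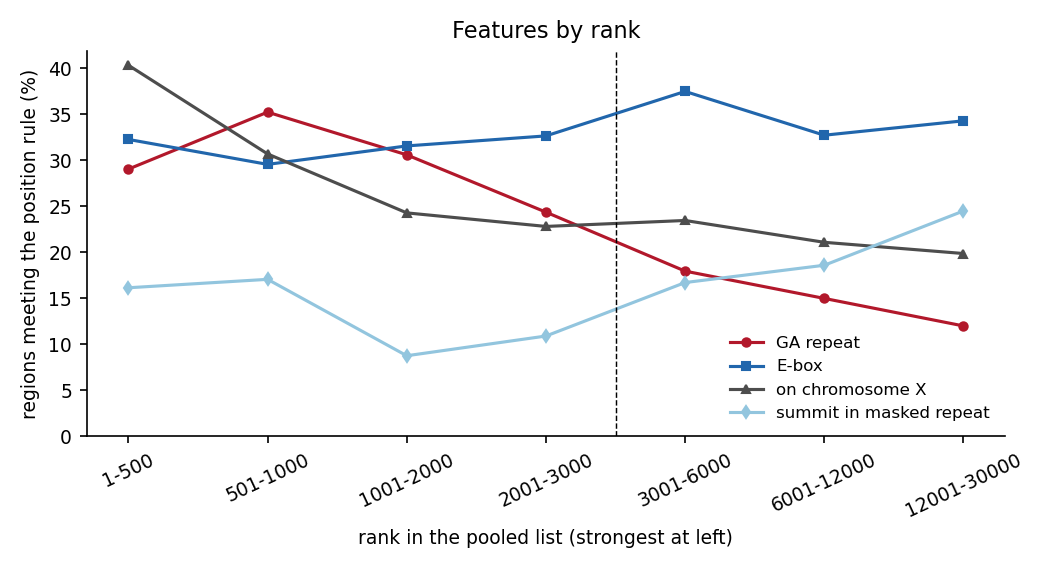
Percent of regions meeting the position rule that carry each feature, by rank in the pooled list from strongest (left) to weakest. The dashed line marks rank 3000, above which the 549 intergenic regions lie. GA repeats are at 29.0% in the first group and 11.98% in the last, X at 40.3% and 19.9%, and the E-box stays between 29.5% and 37.5%.

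The regions were a median of 2574 bp from the nearest coding TSS, with 2755 bp over the eligible genome. The range was 1002 to 37976 bp, and 96 (17.5%) were more than 5 kb away, against 21.0% of the eligible genome. They lay upstream of the nearest TSS in 418 cases (76.1%), against 66.5% of the eligible genome. Between divergent genes lay 202 (36.8%, against 30.7% of the eligible genome), between convergent genes 45 (8.20%, against 15.5%) and between genes on the same strand 301 (54.8%, against 53.6%). The farthest, on X and 37976 bp from the TSS of Y73B3A.1, had 62.3 in the pool, 33.9 in replicate 1 and 32.4 in replicate 2.

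The regions fell into 456 intergenic spans, of which 386 held 1 region, 53 held 2 and 17 held 3 or more. The span between tig-3 and rga-9 on II held 7, from 15253919 to 15263340. The strongest of the 7 had 110 in the pool, 49.4 in replicate 1 and 60.7 in replicate 2, and it and its nearest neighbour among the 7 fall in the same replicate regions. The span between F13D11.3 and hbl-1 on X held 4, with the strongest at 162 in the pool, 92.3 in replicate 1 and 70.3 in replicate 2, and the others at 79.8, 63.5 and 62.1 in the pool. hbl-1, the worm hunchback relative, is a zinc finger factor of developmental timing.

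Several regions also lay beside pop-1, sax-3, sdn-1 and unc-62. The span between pop-1, the worm TCF of Wnt signalling, and ccb-2 on I held 4. sax-3 (the Robo receptor, at 94.9, 78.0 and 66.4 in the pool), sdn-1 (syndecan, at 85.3, 68.2 and 68.0) and unc-62 (a Meis-class homeodomain factor, at 78.5, 69.7 and 63.0) were each the nearest gene of 3. These genes were named after their counts were seen.

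Among gene lists by nearest TSS, 0 of 10 pharyngeal gland genes were the nearest gene of an intergenic region. The gland genes are nearest to only 0.0129% of the eligible genome. Nuclear hormone receptor (nhr) genes were nearest to 9 regions (1.64%, against 1.06% of other regions and 1.86% of the eligible genome), led by nhr-235 at 91.1 and nhr-3 at 86.4. ceh homeobox genes were nearest to 2 (0.364%, against 0.326% of other regions and 0.532% of the eligible genome), ceh-22 (86.8, a factor of pharyngeal muscle) and ceh-58 (65.6). Chemoreceptor genes were nearest to 8 (1.46%, against 1.35% of other regions and 5.35% of the eligible genome), with srw-90 at 84.1, srab-6 at 80.2 and sri-5 at 80.1.

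The remaining lists held few regions. fbxa genes were nearest to 4 (0.729%, against 0.245% of other regions and 0.811% of the eligible genome), with fbxa-55 at 179. clec lectin genes were nearest to 3 (0.546%, against 0.408% of other regions and 0.688% of the eligible genome). fbxb genes were nearest to 1 (0.182%, against 0.204% of other regions and 0.452% of the eligible genome). Collagen col genes were also nearest to 1 (col-50 at 76.7), a share of 0.182%, against 3.30% of other regions and 0.600% of the eligible genome. hlh genes and the flp, nlp and ins peptide genes were nearest to 0, and fbxc genes likewise. These lists are nearest to little of the eligible genome, with 0.324% for hlh, 0.430% for flp, 0.706% for nlp, 0.275% for ins and 0.138% for fbxc, and to between 0.0408% and 0.245% of other regions.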

How the data were processed

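Regions came from ChIP-seq of HLH-6-GFP in 2 biological replicates. Lists for each replicate and for the pool were made by the authors from alignments with a control, per the README texts beside the lists, and the optimal list by IDR from them. Neither aligner, peak caller nor threshold is given in the sources. The signal value is a deposited score of unknown scale, and the −log10 q-value, deposited by the authors, was used only as a second ranking. The lists give no read counts, so depth per sample is unknown. Replicate and pooled lists hold 30000 regions each.

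Build ce11 lists were set against Ensembl release 115 and the WBcel235 genome, which has the same coordinates. Motifs were sought on both strands from 50 bp before to 50 bp after each summit, and copies with BLAST 2.17.0 (identity of at least 80%, e-value 1e-05). Matches more than 101 bp apart counted as separate copies, also within 1 array. Python 3.11.15, pandas 2.3.3 and SciPy 1.17.1 were used. Intervals are exact (Clopper-Pearson, 95%) and cover the counting of regions only. Searches were tested on simulated data. The members, lists and rules were chosen with earlier results of these data known, and no test was run. Named members were the 12 strongest, those of the 20 strongest in the optimal list, the 3 strongest of each motif or gene class, and the 3 to each side of the threshold. Those at an extreme (run length, copies, distance), in a tandem array or sharing a span or gene were named after their values were seen. Ranks, distances, windows and lists were varied.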

Additional observations from a re-analysis of the deposited data

How the results depend on the processing

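Of 131 alternative values, 99 stayed inside the main value's counting interval, or within 1.5 times it for counts. The 99 include the ranking by −log10 q, which gave 549 regions and left every value unchanged. They also include the counting of repeated intervals once, where 0 intervals were repeated. Most other settings share regions with the main choice, so the tally is not a count of independent checks. The comparison of arms with the eligible genome turned, as given below. With the 1500 strongest regions there were 259 intergenic regions, of which 51.74% overlapped the optimal list, 77.99% were strong in both replicates, 32.05% were on X and 33.98% held GAGAGA, with a median GC of 51.49%. With the 6000 strongest there were 1112, of which 13.85% overlapped the optimal list, 24.91% were strong in both replicates, 23.38% held GAGAGA and 13.04% lay in ncRNA genes, with a GC of 48.51%. Keeping the 142 that overlap the optimal list gave 100% overlap, 93.66% in both replicates, 35.92% on X, 16.9% masked, 21.13% at ncRNA genes and a GC of 51.49%. A TSS distance above 2000 bp left 360, at a median of 3582 bp, and one above 500 bp gave a median of 1970 bp. Windows of 100 bp to each side held E-boxes at 52.82% of summits and 50.18% of flanks, GAGAGA at 46.45% of summits and 9.654% of flanks, B boxes at 6.011% of summits and 6.922% of flanks, with a GC of 48.76%. Windows of 25 bp held E-boxes at 16.39% of summits and 15.85% of flanks, GAGAGA at 15.3% and 2.55%, B boxes at 1.275% and 1.821% of the same, with a GC of 50.98%. The arms, cut instead at 25% from each end, held 52.09% of the intergenic regions, below the 54.09% of the eligible genome, whereas the outer parts of chromosomes cut in 3 held more than the eligible genome did. 37.7% lay within 200 bp of a non-coding gene, against 24.5%. The rule applied to a replicate's list alone gave 542 (replicate 1) and 552 (replicate 2) regions, with GAGAGA at 27.31% and 26.99%. No paired analysis was possible because the series has a single group. The unknown depth limits how far weak regions can be told from background.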
